A study of Canis lupus familiaris with 8 samples.

Results

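AXIN2, RNF43, ZNRF3, NOTUM, NKD1, LGR5, TCF7, TCF7L2 and LEF1 were followed in dog kidney epithelial cells held under strain. They are genes that the Wnt pathway switches on to limit itself, a stem cell receptor gene controlled by the same pathway, and genes of the TCF/LEF factors through which the pathway acts on transcription. Members were picked by symbol, with earlier results of these data known. All 9 symbols were among the 37952 genes of the deposited count table. Of the 9 genes, 7 had enough reads to be tested and 2, LGR5 and LEF1, had 0 counts in all 8 wells. None of the 7 tested genes passed the test of stretch against control.

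Wnt ligands bind Frizzled receptors and LRP coreceptors, and this stops a destruction complex from marking beta-catenin for degradation. Beta-catenin then enters the nucleus, binds TCF/LEF factors on DNA and activates their target genes. Among those targets are the pathway's own inhibitors, so their transcripts are widely read as a report of pathway activity. In epithelia beta-catenin also links E-cadherin to the actin cytoskeleton, and so sits in the adhesion complex that bears force between cells.

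The cells were MDCK GII, an established line of canine kidney epithelium. Monolayers were grown overnight in serum-containing medium on collagen-coated elastic silicone membranes. Control wells (4) received no strain, and stretch wells (4) were held at 18% equal biaxial strain for 2 hours before lysis. All wells shared the line, the coating and the medium, and the labels describe them as technical quadruplicates, so p-values measure only the spread between wells of 1 line.

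Total counts lay between 27047358 and 32478887 per well. All 10 epithelial markers examined, among them CDH1, EPCAM and KRT8, were present, and their summed level was 6301 to 7075 CPM (read counts scaled to a common library total with TMM factors) in the control group and 6645 to 6817 CPM under stretch. The 6 kidney tubule markers summed to 383 to 459 CPM without strain and 379 to 464 CPM with it. Of 6 fibroblast markers, 4 endothelial markers and 4 leukocyte markers, 4, 2 and 3 had fewer than 10 counts over all wells. The defining genes PTPRC, COL1A2 and DCN were at 0, while CD14 had 6.30 CPM in the control and 5.80 CPM in the stretch group, PDGFRA 3.07 and 3.35, and KDR 1.40 and 1.08.

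The 9 genes differed widely in baseline level. For comparison between genes, CPM were divided by exon length in the table. TCF7 stood highest, at 27.5 ± 2.58 CPM per kb in control wells (mean ± SD, n = 4), and ranked above 77.0% of the 14571 tested genes on this scale, averaged over all wells. TCF7L2 followed at 5.92 ± 0.322 CPM per kb and NOTUM at 5.91 ± 1.14, and these neighbours overlapped. ZNRF3 had 4.03 ± 0.314 CPM per kb, and only its highest well came close to the lowest NOTUM well, at 4.41 CPM per kb.

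RNF43 and AXIN2 came next on the same scale, at 1.91 ± 0.169 and 1.29 ± 0.329 CPM per kb in control wells. Their wells overlapped, so their order was not beyond the spread. AXIN2 ranked above only 18.5% of the tested genes. NKD1 was the lowest of the tested members at 0.148 ± 0.0644 CPM per kb, with 5 to 17 raw counts per well. The count filter kept 38.4% of all genes in the table and 62% of its protein-coding genes. Genes with no count in any well made up 42.1% of all genes and 23.6% of the protein-coding ones.

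**Figure D1:**
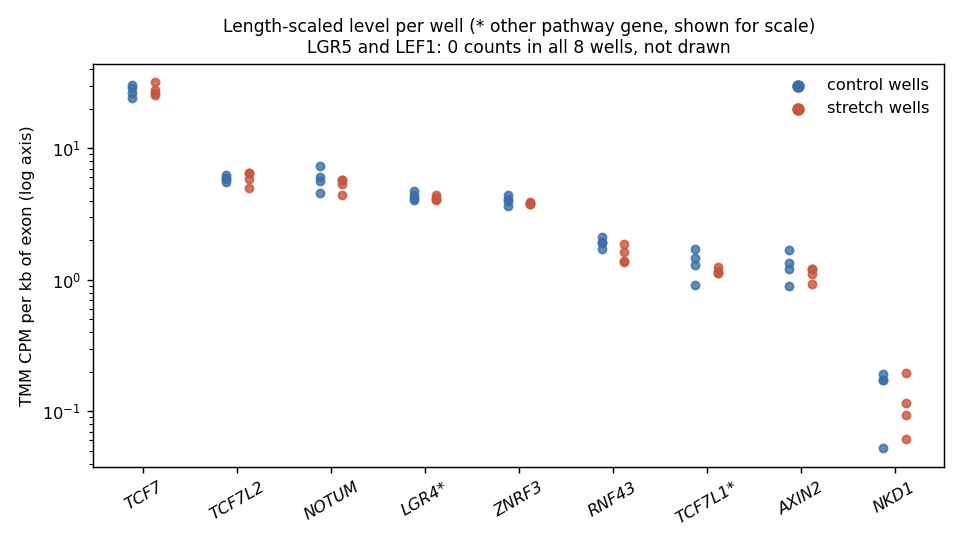
Level of each gene in each of the 8 wells, in CPM per kb of exon on a log axis, with control wells in blue and stretch wells in red. TCF7 stands apart at the top (24.3 to 31.9), NKD1 at the bottom (0.0521 to 0.195), and LGR4 and TCF7L1 are other pathway genes drawn for scale.

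LGR5, on chromosome 10 (13378129 to 13505269), encodes a receptor for R-spondins, secreted proteins that strengthen Wnt signalling, and marks stem cells in several epithelia. It had 0 of 237558216 counts over the 8 wells. A count of 0 allows up to 3 counts, or 0.0126 CPM over all wells together, and this limit covers counting error only. Of its relatives, LGR4 was present at 20.1 CPM in control and 19.4 CPM in stretch wells, and LGR6 had 22 counts in all. RSPO1, RSPO2, RSPO3 and RSPO4, the R-spondin genes, were each listed at 0.

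RNF43 and ZNRF3 encode membrane ubiquitin ligases that remove Frizzled receptors from the cell surface, an activity that R-spondins and LGR receptors block. RNF43 lies on chromosome 9 (32966428 to 33031867). Its control wells held 13.7, 13.3, 14.9 and 12.0 CPM for replicates 1 to 4, and its stretch wells 13.2, 11.5, 9.71 and 9.62. The 3 lowest values were all stretch wells, but stretch replicate 1 lay inside the control range, so the groups overlapped. The log2 change was -0.29 ± 0.12 (SE), with a 95% interval from -0.54 to -0.03. RNF43 was lower in 4 of 4 same-numbered pairs, by 0.04, 0.21, 0.61 and 0.31 on the log2 scale.

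RNF43 did not pass after adjustment (edgeR quasi-likelihood test with Benjamini-Hochberg adjustment, adjusted p = 0.9995). Its unadjusted p in the same edgeR fit was 0.0309, and 3.97% of all tested genes had an unadjusted p under 0.05. The two-sided exact permutation p of 4 against 4 wells was 0.0571, where the smallest possible is 0.0286. Its exons share 489 bases with LOC111097406 on the opposite strand, which had 0 counts in every well.

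ZNRF3 lies on chromosome 26 (22650757 to 22808880). It had 30.25, 28.35, 25.1 and 27.1 CPM in control replicates 1 to 4 and 27.0, 25.8, 26.0 and 26.3 CPM in stretch replicates 1 to 4. Its mean was 27.7 ± 2.16 CPM in control and 26.3 ± 0.547 CPM in stretch wells (n = 4 each). The stretch wells were tightly grouped and lay within the control range. ZNRF3 had a log2 change of -0.08 ± 0.07 with a 95% interval from -0.23 to 0.08 (edgeR, adjusted p = 0.9995). Its exons share 338 bases with C26H22orf31 on the opposite strand, which had 0 counts.

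NOTUM encodes a secreted enzyme that strips the lipid from Wnt ligands and so inactivates them. It lies on chromosome 9 (1168436 to 1174439). The control wells held 8.41, 11.0, 13.4 and 10.3 CPM for replicates 1 to 4, and the stretch wells 8.07, 10.5, 10.5 and 9.80. Replicate 1 was the lowest well in both groups, and the groups overlapped over most of their range. Stretch was lower in 4 of 4 pairs, but the log2 change of -0.15 ± 0.14 had an interval from -0.46 to 0.15 (edgeR, adjusted p = 0.9995). Without control replicate 3, the highest well, it was -0.03.

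AXIN2 encodes a scaffold of the destruction complex and is the target gene most used to read the pathway. It lies on chromosome 9 (12336357 to 12367417). Its control wells held 4.96, 6.63, 9.31 and 7.34 CPM for replicates 1 to 4, from 135 to 275 counts. Its stretch wells held 5.08, 6.09, 6.58 and 6.64 CPM. All 4 stretch values lay inside the control range, which was wider (SD of 1.80 CPM in control and 0.722 in stretch wells). For AXIN2 the log2 change was -0.21 ± 0.17 with an interval from -0.59 to 0.16 (edgeR, adjusted p = 0.9995). It was -0.05 without control replicate 3 and -0.34 without control replicate 1, the wells with the highest and the lowest AXIN2 level.

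NKD1, on chromosome 2 (63998132 to 64083111), encodes a protein that binds Dishevelled and dampens the signal inside the cell. It had 14, 16, 17 and 5 counts in control and 10, 5, 17 and 9 in stretch wells. The wells overlapped fully, 2 pairs were higher and 2 lower, and the interval ran from -1.32 to 0.67 around a log2 change of -0.32. With an SE of 0.46, NKD1 had the least precise value of the 7. Leaving out single wells, its change ran from -0.68 (without stretch replicate 3) to -0.12 (without stretch replicate 2). LOC102151795, on the opposite strand, shares 104 exon bases with NKD1 and had 4 counts in control and 13 in stretch wells.

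**Figure D2:**
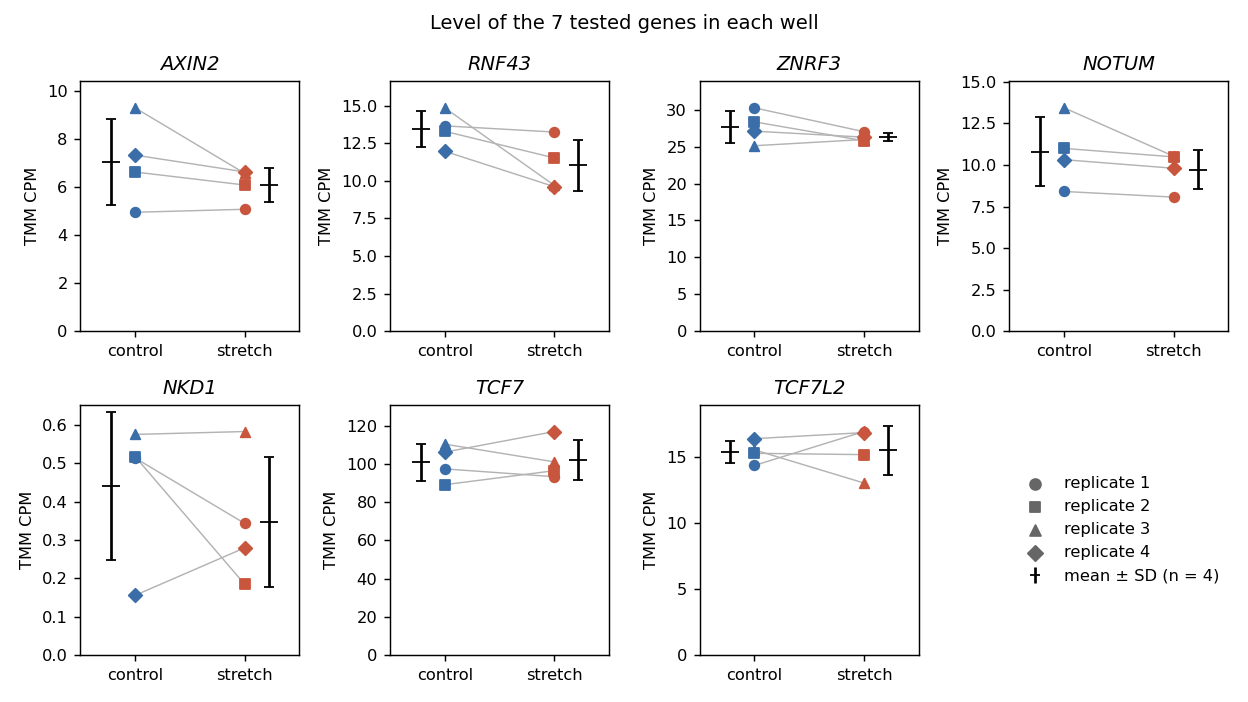
CPM of the 7 tested genes in each well, control in blue and stretch in red, with grey lines joining wells of the same replicate number and black bars for the mean ± SD of 4 wells. Control and stretch wells overlap in all 7 genes. RNF43 and NOTUM are lower after stretch in all 4 pairs, as are 7.84% of all tested genes, and NKD1 stays under 0.6 CPM.

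TCF7, TCF7L2 and LEF1 encode DNA-binding partners of beta-catenin that share a high mobility group domain. TCF7, also known as TCF1, lies on chromosome 11 (22321753 to 22354875). It had 97.5, 89.2, 110.5 and 106 CPM in control replicates 1 to 4 and 93.4, 96.6, 101 and 117 CPM in stretch replicates 1 to 4. The means were 100.9 ± 9.47 and 102 ± 10.5 CPM (n = 4 each), and the groups overlapped. TCF7 had a log2 change of 0.02 ± 0.08 with an interval from -0.16 to 0.19 (edgeR, adjusted p = 0.9995).

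TCF7L2, also known as TCF4, lies on chromosome 28 (24261768 to 24459019). Control replicates 1 to 4 had 14.4, 15.3, 15.5 and 16.4 CPM, and stretch replicates 1 to 4 had 16.9, 15.2, 13.0 and 16.8 CPM. Its means were 15.4 ± 0.837 CPM in control and 15.5 ± 1.83 CPM in stretch wells (n = 4 each), with stretch wells both above and below the control range. The log2 change was 0.01 ± 0.10 with an interval from -0.20 to 0.22 (edgeR, adjusted p = 0.9995). LOC119866590, on the opposite strand across the start of TCF7L2, shares 196 exon bases with it. This gene had 9, 7, 5 and 3 counts in control wells and 30, 8, 16 and 15 in stretch wells, and was too low for the filter. In the fit with no filter it did not pass (edgeR, adjusted p = 0.945). Whether counting separated the strands is not given in the sources used here.

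LEF1, on chromosome 32 (11256345 to 11374064), had 0 counts in all 8 wells, with the same upper limit as LGR5. LOC100687917, which shares 22 exon bases with LEF1 on the opposite strand, had 6900 counts in control and 7280 in stretch wells. TCF7L1, the remaining family member and mostly a repressor, had 2.77 CPM in control and 2.41 CPM in stretch wells. Of the length-scaled level of the 4 family members together, TCF7 made up 79.0 ± 1.38% in control and 79.5 ± 2.06% in stretch wells (n = 4 each). TCF7L2 made up 17.1% in both groups and TCF7L1 3.89 ± 1.03% and 3.35 ± 0.137%. Each share differed between groups by less than its SD in control wells, though for TCF7L1 by more than its SD in stretch wells.

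For the 7 tested genes as a whole, the median log2 change was -0.15, beside -0.0032 over all 14571 tested genes. Stretch was lower in 5 and higher in 2, and 48.2% of all tested genes were higher. In the edgeR fit, 0 of the 7 genes and 0 of all genes (0%) had an adjusted p under 0.05, and RNF43 alone among the 7 had an unadjusted p under 0.05. With the replicate number as a block, 102 of all tested genes (0.7%) were called, but again 0 of the 7. RNF43 then had a log2 change of -0.29 ± 0.10 (edgeR, adjusted p = 0.265) and an unadjusted p of 0.00798, and 8.89% of all genes were under 0.05 in that fit. Under DESeq2, 40 genes were called in all, and 0 of the 7.

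RNF43 and NOTUM were lower in 4 of 4 pairs, as were 7.84% of all tested genes, and none of the 7 was higher in 4 of 4 pairs, as 8.45% were. In none of the 7 did the groups stand apart without overlap, whereas stretch wells were all below control wells in 1.24% of tested genes and all above in 1.3%. Mean log2 differences within replicates 1 and 2 and within replicates 3 and 4 were -0.12 and -0.46 for RNF43, -0.04 and -0.32 for AXIN2, and -0.06 and -0.21 for NOTUM. For ZNRF3 they were -0.15 and 0.0020, and for TCF7 0.03 and 0.0062. The differences within these sets had opposite signs for NKD1, at -0.86 and 0.33, and for TCF7L2, at 0.11 and -0.11. The labels do not name these sets, and each value is the mean of only 2 pairs.

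**Figure D3:**
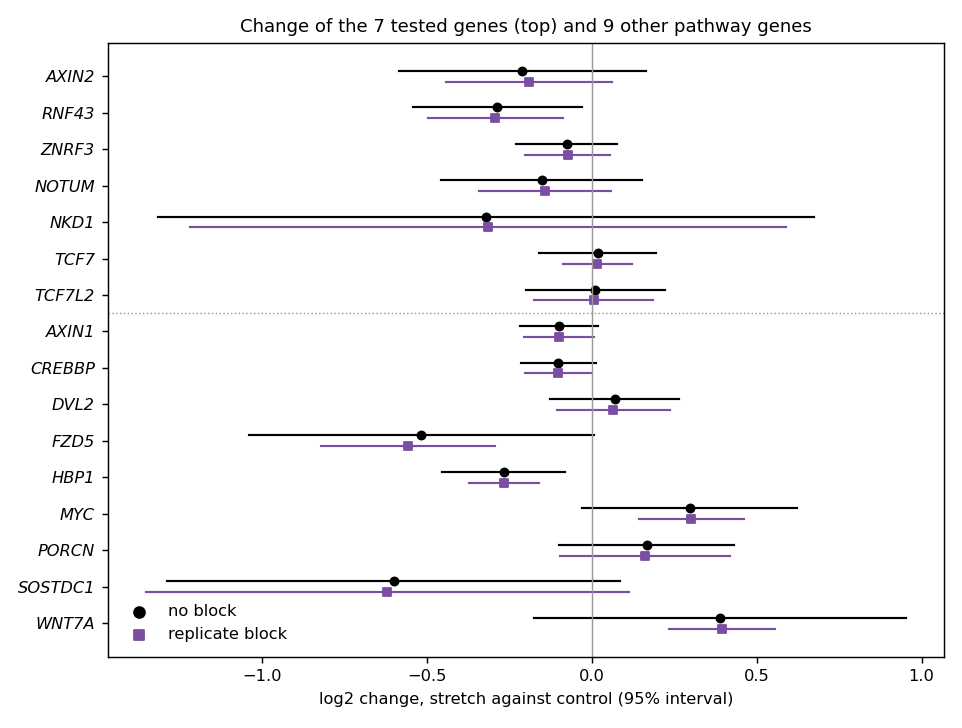
Log2 change of stretch against control with its 95% interval, in the fit without a block (black) and with the replicate number as a block (purple), for the 7 tested genes above the dotted line and 9 other pathway genes below it. These 9 were picked by their p-values in these data, as genes called in either fit or of smallest p in their role. Among the 7, only the RNF43 interval leaves out 0 (-0.54 to -0.03 without the block), before any adjustment for the number of genes tested.

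Of the 21 pairs of tested members, AXIN2 and NOTUM had the highest correlation over the wells, and it did not pass after adjustment. Both genes were lowest in replicate 1 of either group and highest in control replicate 3. Their log2 CPM had a Pearson r of 0.936 over the 8 wells (exact permutation p = 0.00372, adjusted over the 21 pairs 0.0781). Spearman's rho was 0.619 (exact permutation p = 0.115, adjusted 0.945). These permutations treat the 8 wells as exchangeable and ignore that same-numbered wells deviated together. Without the 2 wells farthest from the AXIN2 median, control replicates 1 and 3, r was 0.806. RNF43 had an r of 0.0653 with AXIN2 and 0.111 with NOTUM, and 0 of the 21 pairs had an adjusted p under 0.05.

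Replicate number held 75.6% of the variance of AXIN2 and 81.3% of that of NOTUM over the wells, beside a median of 57.5% over all tested genes. Group held 11.4% and 10.4%, beside a median of 6.59%. For RNF43, replicate number held 29.5% and group 47.0%. Replicate number has more levels than group and can hold more by chance, so each share compares only with its own median. The 5 genes most like AXIN2 over the 8 wells by Pearson r, out of 14570, were LIPE (0.989), BRPF1 (0.978), CARHSP1 (0.970), ZBTB7A (0.967) and ZNF281 (0.966). NOTUM came 28th by this measure. These values describe 8 wells that differ in depth and replicate number and carry no p.

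**Figure D4:**
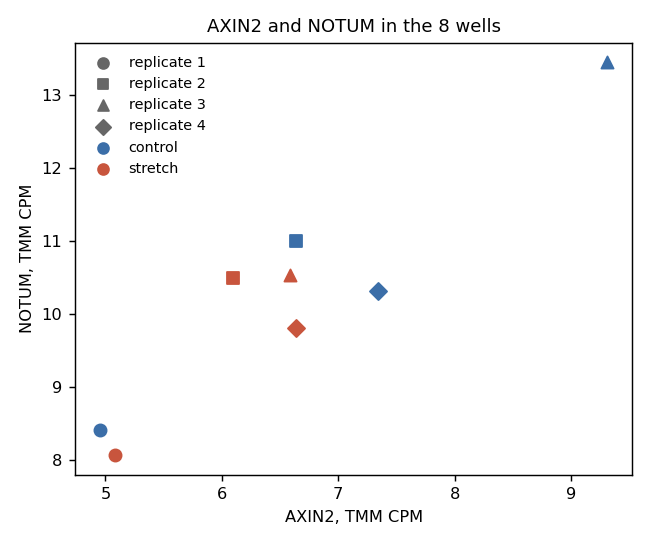
AXIN2 against NOTUM in CPM, 1 point per well, with control wells in blue, stretch wells in red and a symbol for each replicate number. Both replicate 1 wells sit at the lower left and control replicate 3 at the upper right (9.31 and 13.4 CPM).

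The rest of the pathway was read from 108 further symbols grouped by role, of which 107 were in the table, 22 were at 0 in all wells and 67 were tested. Without the block, 0 of the 67 passed in edgeR's test, and 1, HBP1, had an unadjusted p under 0.05, as had 3.97% of all tested genes. With the block, WNT7A rose and HBP1 fell, and no other of the 67 passed. In that fit 0.7% of all tested genes passed. The median log2 change of the 67 was 0.0056, with 37 higher and 30 lower. Those described below with a change were mostly picked by their p-values in these data, not as typical of the 67. Stretch wells were all below control wells for 2 genes, SOSTDC1 and FZD8 (FZD8 is named after its values were seen), and all above for 0. Of all tested genes, 1.24% were all below and 1.3% all above.

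WNT7A, a Wnt ligand gene on chromosome 20 (4102223 to 4168959), held 10.3, 11.9, 20.4 and 14.5 CPM in control replicates 1 to 4 and 13.1, 16.0, 24.7 and 21.1 in stretch replicates 1 to 4. The groups overlapped, but each stretch well was above the control well of its number. WNT7A had a log2 change of 0.39, with an SE of 0.25 when the pairs were ignored and 0.08 in the blocked fit (edgeR, adjusted p = 0.9995 and 0.0179). In the unblocked fit the change was 0.23 without stretch replicate 3 and 0.61 without control replicate 3. With a block of only 2 levels (replicates 1 and 2, replicates 3 and 4) the adjusted p was 0.138. Leaving out pair 1, 2 or 4 from the blocked fit ended the call (edgeR, adjusted p = 0.0989, 0.0645 and 0.156). The log2 change was then 0.41, 0.39 and 0.35.

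Of 19 ligand genes, 6 were tested and 5 were at 0, and WNT7B had the most reads among them, 37.2 CPM in control and 38.1 CPM in stretch wells. WNT7B did not pass with or without the block, but passed in the blocked fit that left out pair 3, with a log2 change of 0.28 (edgeR, adjusted p = 0.0322). Ligand secretion needs PORCN and WLS. PORCN had 6.11 ± 0.529 CPM in control and 6.86 ± 0.770 CPM in stretch wells (n = 4 each). WLS had 206 and 205 CPM.

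Among 17 receptor genes 13 were tested. FZD5, a Frizzled receptor gene with a short model of 420 exon bases in the table, had 8.95 ± 1.47 CPM in control and 6.26 ± 2.28 CPM in stretch wells (n = 4 each). It was lower in 4 of 4 pairs, with a log2 change of -0.52 in the unblocked and -0.56 in the blocked fit, and did not pass in the latter (edgeR, adjusted p = 0.0505). Leaving out stretch replicate 3 gave -0.34 in the unblocked fit. Among the alternatives run, it passed only in the blocked fit that left out pair 2 (edgeR, adjusted p = 0.0452).

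Of 17 genes of secreted or membrane inhibitors, 9 were at 0, among them DKK1, WIF1 and SFRP1, and 7 were tested. SOSTDC1, an inhibitor of Wnt and BMP signals, had 17 to 22 counts in control and 8 to 16 in stretch wells, a log2 change of -0.60 ± 0.32 (edgeR, adjusted p = 0.9995). Inside the cell, DVL2 had 14.6 and 15.4 CPM, and AXIN1, the constitutive relative of AXIN2, had 44.9 ± 1.34 CPM in control and 41.8 ± 1.26 CPM in stretch wells (n = 4 each). The 11 destruction complex genes were all tested, none passed, and their median log2 change was 0.02.

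Beta-catenin itself (CTNNB1) had 1228 CPM in control and 1177 CPM in stretch wells, a log2 change of -0.06 ± 0.07. CREBBP, a histone acetyltransferase that beta-catenin recruits, had a log2 change of -0.10 ± 0.05. Of the 8 genes in this group, 7 were lower and 0 passed with or without the block.

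HBP1 encodes an HMG-box repressor that inhibits TCF factors, and lies on chromosome 18 (13624135 to 13652695). Its control wells held 85.8, 81.1, 68.3 and 71.8 CPM and its stretch wells 66.2, 68.6, 54.5 and 65.6 for replicates 1 to 4. Stretch was below control in every pair, and only stretch replicate 2 reached into the control range. HBP1 had a log2 change of -0.27, with an SE of 0.09 in the unblocked fit and 0.05 in the blocked one (edgeR, adjusted p = 0.9995 and 0.0147). Without pair 1 the blocked call was lost (edgeR, adjusted p = 0.206), with a log2 change of -0.23. LOC106559951 and LOC111090891, on the opposite strand, share 242 and 119 exon bases with HBP1 and had 27 and 10 counts in all.

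Outside the feedback genes, 12 other TCF targets were listed, of which 6 were tested. MYC, a growth regulator that many other pathways also induce, had 190.4 ± 32.8 CPM in control and 234 ± 33.7 CPM in stretch wells (n = 4 each) and was higher in 4 of 4 pairs. It did not pass with or without the block (edgeR, adjusted p = 0.148 and 0.9995). The median log2 change of the 6 was 0.10, beside -0.15 for the 7 feedback and TCF genes. The difference between these medians was not tested.

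**Figure D5:**
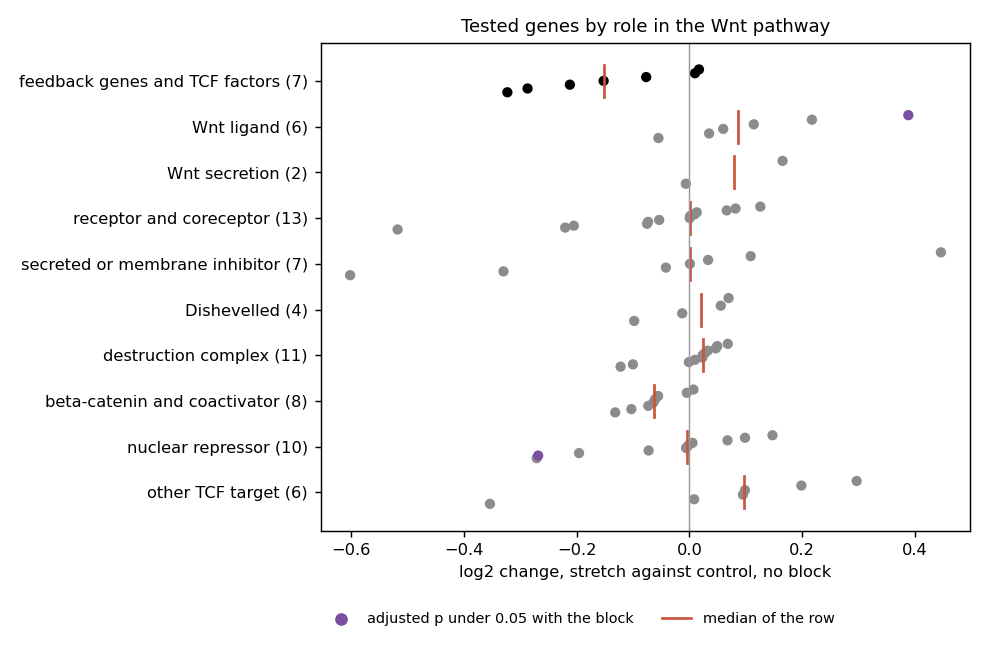
Log2 change without the block of every tested gene, 1 row per role with the number of genes in brackets, and the row median in red. The 2 purple points, WNT7A and HBP1, had an adjusted p under 0.05 in the fit with the replicate block, and the feedback genes and TCF factors in the top row (black) run from -0.32 to 0.02.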

How the data were processed

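PolyA-selected stranded libraries of 8 wells were sequenced, per the labels' protocols. The deposited values are the authors' raw counts, reads assigned to the exons of each gene. The submitters' processing notes name FastQC 0.11.8, Trim Galore 0.6.5, STAR 2.7.3a, Subread and featureCounts. Build, strand setting and multi-mapping rules are not given in the sources used here. All 37291 symbols matched to RefSeq's UU_Cfam_GSD_1.0 table had identical start and end positions there, and coordinates are as the count table gives them.

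Counts were tested in R 4.3.3 with edgeR 4.0.16 (robust glmQLFit and glmQLFTest, TMM factors, filterByExpr with a minimum count of 10 and a minimum total of 15), over 14571 genes with Benjamini-Hochberg adjustment and a threshold of 0.05. The procedure was tested on simulated data. SE is the size of the log2 change divided by the square root of F. CPM are TMM-scaled, and pair differences used log2 CPM with a prior count of 2. The labels do not say what a replicate number shares. Same-numbered wells deviated together (r of 0.328, 0.108, 0.182 and 0.178 for numbers 1 to 4, over genes), so the blocked fit stands beside results it changes. Columns of per-sample values outside the series numbered 0.

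Members and lists were chosen with earlier results of these data known. The text names all 9 members, pathway genes called with or without the block, and the gene of smallest p in each role. It also names the 5 genes most like AXIN2. Some further genes are named for level only. Alternatives were limma-voom (limma 3.58.1), DESeq2 1.42.0, other scalings, filters and blocks, and leaving out wells or pairs. Figures used matplotlib 3.10.9.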

Additional observations from a re-analysis of the deposited data

Results flagged for a closer look

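For NKD1, control replicate 4 had 0.155 CPM (5 counts) while the other control wells had 0.514 to 0.576 CPM. The gap to its neighbour was 0.854 of the group's range, above Dixon's 95% critical value for a group of 4. This was 1 of 32 groups of 4 wells examined for the genes named by rule, and chance gives about 1 in 20.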

How the results depend on the processing

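None of the 7 tested members passed under any of the 21 alternatives in which it was tested. RNF43 was lower in all 21, with log2 changes from -0.38 to -0.19, and AXIN2 from -0.34 to -0.05, ZNRF3 from -0.12 to -0.03 and NOTUM from -0.25 to -0.03 kept their direction. Directions that changed were those of genes near 0 or with few counts, on leaving out wells or pairs. Leaving out single wells, TCF7 ran from -0.0522 (without stretch replicate 4) to 0.0640, with -0.0343 without control replicate 2. It was -0.0122 and -0.0249 with the replicate block and without pair 2 or 4. TCF7L2 ran from -0.0319 (without stretch replicate 1) to 0.0861, with -0.0190 without control replicate 1 and -0.0297 without stretch replicate 4. It was -0.0716 and -0.0066 with the block and without pair 1 or 4. NKD1 was 0.0054 with the block and without pair 2. Over all genes, the count of 0 became 102 with the replicate block, 58 with the 2-level block, 40 with DESeq2 and 11 with no count filter. It was 0 to 12 on leaving out single wells (12 without control replicate 3) and 43, 67, 186 and 74 with the block and without pair 1, 2, 3 or 4. Unadjusted p under 0.05 numbered 579 in the fit without a block. Among the other pathway genes the count of 0 became 2 with the block, 1 (HBP1) with the 2-level block, and 0 to 3 on leaving out wells or pairs. The 3 called with the block and without pair 3 were WNT7A, WNT7B and HBP1. With all 8 wells, the replicate block changed the call of WNT7A and HBP1 and of no other member or pathway gene. Of the genes given with a change, NKD1 (93 counts in all) and SOSTDC1 (125) are the most limited by depth.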
